A study of Mus musculus with 6 samples.

Results

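The R-spondin axis of Wnt signalling was followed through 9 genes in primary stromal cells of mouse prostate. These were the 4 R-spondins (Rspo1, Rspo2, Rspo3 and Rspo4), the 3 receptors Lgr4, Lgr5 and Lgr6, and the 2 ubiquitin ligases Znrf3 and Rnf43. They were taken by name, as members of these 3 families, from 24346 gene symbols. The S37A group held 3 libraries of cells with the lentiviral vector FU-CGW carrying S37A β-catenin, and the Vec group held 3 libraries of cells with the vector. The cells of both groups were grown from prostates of C57BL/6 mice 8 to 12 weeks old, on collagen with 1e-10 M dihydrotestosterone, and kept their own β-catenin gene. Both groups also shared 5% Nu-Serum, 5% fetal bovine serum, a replating of 30 min and a limit of 3 weeks after dissociation. Whether replicate libraries had their own culture or animal is not given in the labels, so p-values reflect only how far these samples spread, and that spread may be technical. For infection the labels name both UGSM cells and dissociated cells of the prostate without saying which gave these libraries, and they do not give the share of cells that carried the virus.

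R-spondins are secreted proteins that bind Lgr4, Lgr5 or Lgr6 on the cell surface together with Znrf3 or Rnf43. Without R-spondin, these ligases mark Frizzled receptors and the co-receptor Lrp6 for removal from the membrane. Bound R-spondin takes the ligases away instead, so that more receptors remain to receive Wnt ligands. In many tissues R-spondins come from stromal cells, and Lgr5, Znrf3, Rnf43 and Axin2 are known as genes that β-catenin can induce. S37A β-catenin has lost a serine through which cells tag β-catenin for destruction, and β-catenin acts downstream of all 9 genes. The comparison asks which of their transcripts differ in level between S37A and Vec cells.

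Levels are FPKM, fragment numbers divided by transcript length and by the mapped fragments of the library, and were summed over the transcript models of a gene. The confidence intervals deposited beside them corresponded to 37.2 to 43.0 M fragments per library in S37A and 42.5 to 46.5 M in Vec. At least 1 FPKM was reached by 10964 to 11000 genes in S37A and 11079 to 11098 in Vec. Differences are S37A minus Vec on the log2(FPKM + 1) scale, where the change of a low gene appears smaller than it is, and adjusted p-values are from limma with Benjamini-Hochberg adjustment over 12022 genes. Ctnnb1, which encodes β-catenin, stood at 132, 144 and 146 FPKM in S37A and at 116, 99.1 and 116 FPKM in Vec, without separation of introduced and own transcripts (adjusted p = 0.0158; 0.0534 without S37A replicate 2 and 0.0585 without S37A replicate 3). Axin2, a feedback gene of the pathway, stood at 3.29, 2.74 and 2.82 FPKM in S37A and at 0.169, 0.0921 and 0.132 FPKM in Vec (adjusted p = 3.85e-05). Summed levels of 8 fibroblast genes were 4618 to 5062 FPKM in S37A and 3966 to 4555 FPKM in Vec. Over all libraries Col1a1 had 1444 to 2063 FPKM and Vim 1505 to 1702 FPKM, while Fbln1 did not exceed 3.29 FPKM nor Lum 0.502 FPKM. Of these 8, 7 were tested, 2 of which (Pdgfra and Fbln1) were called lower in S37A and 5 did not pass. The summed levels of 6 smooth muscle genes were 8189 to 8550 FPKM in S37A and 6934 to 7361 FPKM in Vec. All 6 smooth muscle genes were called higher in S37A. Over all tested genes, 6.06% were called higher and 19.9% lower. Of 12 macrophage markers, 8 were tested and 7 were called higher, with sums of 52.9 to 60.9 FPKM in S37A and 19.6 to 25.3 FPKM in Vec. Of 7 endothelial markers, 6 were tested and did not pass, with sums of 93.5 to 97.4 FPKM in S37A and 97.9 to 110.6 FPKM in Vec. The tested basal, luminal epithelial and neural markers did not pass either, and Pbsn, a marker of luminal cells, did not exceed 0.0412 FPKM in any library. The part of smooth muscle and macrophage cells in the results below was not tested. In bulk RNA, fewer cells of a type and less RNA per cell cannot be told apart.

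The 9 genes spanned a wide range of levels, and in each role a single gene held most of the FPKM. Rspo3 had the highest level, followed by Lgr4, Znrf3, Lgr6, Rnf43, Lgr5, Rspo2, Rspo1 and Rspo4 in order of mean FPKM over the 6 libraries. The first 4 of these had ranges over the 6 libraries that did not overlap with those of their neighbours, nor did Lgr6 with Rnf43. From Rnf43 down, the ranges of neighbours overlapped, so that the order there is within the spread of the libraries. Rspo3 made up 99.6% to 99.9% of the summed R-spondin FPKM in each library. Lgr4 made up 82.7% to 85.2% of the summed Lgr FPKM in S37A and 85.0% to 88.7% in Vec. Znrf3 made up 91.1% to 96.0% of the summed ligase FPKM in S37A and 88.6% to 93.4% in Vec. Rspo3 lay above 67.7% of the tested genes in mean level, Lgr4 above 43.4%, Znrf3 above 14.0% and Lgr6 above 9.02%.

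**Figure D1:**
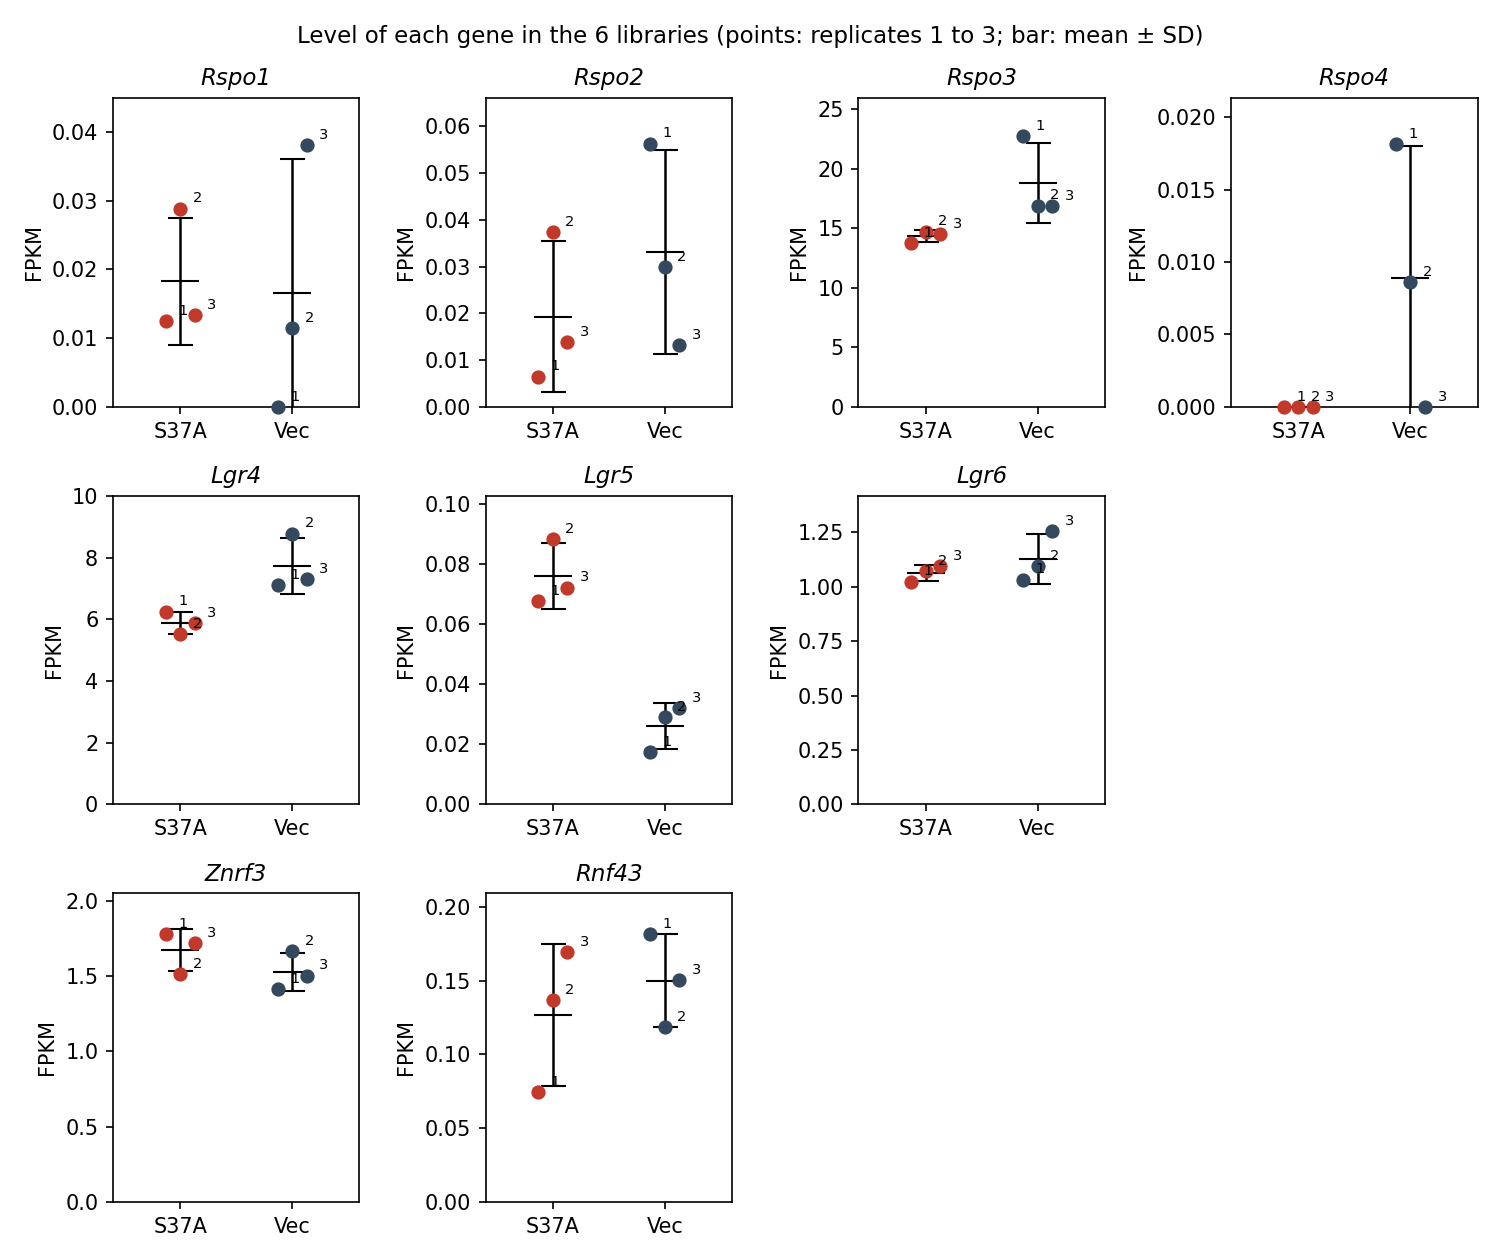
FPKM of each of the 9 genes in the S37A (red) and Vec (dark blue) libraries, on a linear axis that starts at 0 and differs between panels; numbered points are replicates and the bar is the mean ± SD of 3 libraries. The S37A points lie below all Vec points for Rspo3 and Lgr4 and above them for Lgr5, while the groups overlap for the other 6 genes.

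Among the 4 genes tested, whose means reached 0.5 FPKM, Rspo3 and Lgr4 fell in S37A, while Lgr6 and Znrf3 did not pass. For comparison, limma called 26.0% of all tested genes, 6.06% higher and 19.9% lower in S37A. The groups did not overlap for 47.8% of the tested genes. The median log2 difference was -0.19 over the 4 genes and -0.07 over all tested genes. The other 5 genes, all below the filter, are described from their values and from a fit without a filter.

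Rspo3, the abundant ligand of the set, lies on chromosome 10 from 29452416 to 29535867 (minus strand of mm10) and codes for protein. It had 13.8, 14.7 and 14.5 FPKM in the S37A libraries, against 22.7, 16.9 and 16.9 FPKM in the Vec libraries. All S37A values were below all Vec values, and Vec replicate 1 stood apart from the other Vec libraries. The means were 14.3 ± 0.501 FPKM in S37A and 18.8 ± 3.37 FPKM in Vec (SD, n = 3 each), a ratio of 0.761. With a log2 difference of -0.36 (SE 0.11), Rspo3 passed narrowly (limma adjusted p = 0.0453). Exact permutation of its library labels (two-sided) gave p = 0.1, and 3 against 3 cannot give less. Without Vec replicate 1 the difference shrank to -0.22 with a smaller standard error of 0.04 and the call held (adjusted p = 0.0170). The call was lost with any other library left out (adjusted p = 0.0540 without Vec replicate 2, 0.0530 without Vec replicate 3, and, without S37A replicates 1, 2 or 3 in turn, 0.109, 0.0935 and 0.106) and with median-ratio scaling (0.104), quantile normalization (0.0931) or the 100 most abundant genes removed (0.0713). An antisense gene, Gm48159, overlaps the start of Rspo3 on the opposite strand, and the cDNA kit does not mark strand. Gm20276 lies within the span of Rspo3 on the same strand, and whether it shares exons with Rspo3 was not examined.

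The remaining R-spondins were near the limit of detection. Rspo2, known for its role in limb and lung development, had 0.00649, 0.0374 and 0.0139 FPKM in S37A, against 0.0563, 0.0298 and 0.0132 FPKM in Vec. Rspo1 had 0.0125, 0.0289 and 0.0134 FPKM in S37A, against 0 (as listed), 0.0115 and 0.0381 FPKM in Vec. By the width of the deposited intervals, these values stand for at most 9.0 fragments per library for Rspo2 and 3.0 for Rspo1, and the groups overlapped for both. Rspo4, needed for nail formation in humans, was listed at 0 in every S37A library and at 0.0181, 0.00864 and 0 FPKM in Vec, or at most 1.99 fragments. In the fit without a filter, Rspo1, Rspo2 and Rspo4 did not pass (limma adjusted p = 0.929, 0.548 and 0.456). A difference in these 3 genes was not detectable at this depth.

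Lgr4, the receptor found in most tissues, lies on chromosome 2 from 109917647 to 110014257 (plus strand of mm10) and codes for protein. It had 6.26, 5.52 and 5.88 FPKM in S37A, against 7.10, 8.78 and 7.30 FPKM in Vec, and the groups did not overlap. The means were 5.89 ± 0.368 FPKM in S37A and 7.73 ± 0.918 FPKM in Vec (SD, n = 3 each), a ratio of 0.762, close to that of Rspo3. Its log2 difference was -0.34 (SE 0.08, limma adjusted p = 0.0236). The call was lost without S37A replicate 2 (adjusted p = 0.0753) or S37A replicate 3 (0.0706), without a filter (0.0514), and with median-ratio scaling (0.0501) or quantile normalization (0.0552). The difference stayed between -0.39 and -0.25 over all 18 alternatives. No annotated gene of GENCODE M21 overlapped Lgr4.

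The 250 bases before the Lgr4 start, in RefSeq on GRCm38.p6 at chr2:109917397-109917646 (plus strand), are given because Lgr4 was called and is among the 5 of 9 genes with an entry in the promoter table used here.
Lgr4 upstream: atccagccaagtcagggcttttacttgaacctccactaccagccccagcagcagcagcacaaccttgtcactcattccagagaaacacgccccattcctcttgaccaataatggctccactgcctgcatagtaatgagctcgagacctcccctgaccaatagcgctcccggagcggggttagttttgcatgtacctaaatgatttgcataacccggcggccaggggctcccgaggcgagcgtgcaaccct
The letters CTTTGA, the core recognised by the Tcf/Lef partners of β-catenin, or TCAAAG on the other strand, were sought in the 300 bases from 250 before to 50 after each start. Of 32851 such windows, 16.0% hold either. The windows of Lgr4, Lgr6, Rspo1, Rspo4 and Rnf43 hold neither, nor do those of Axin2 and Ctnnb1.

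**Figure D2:**
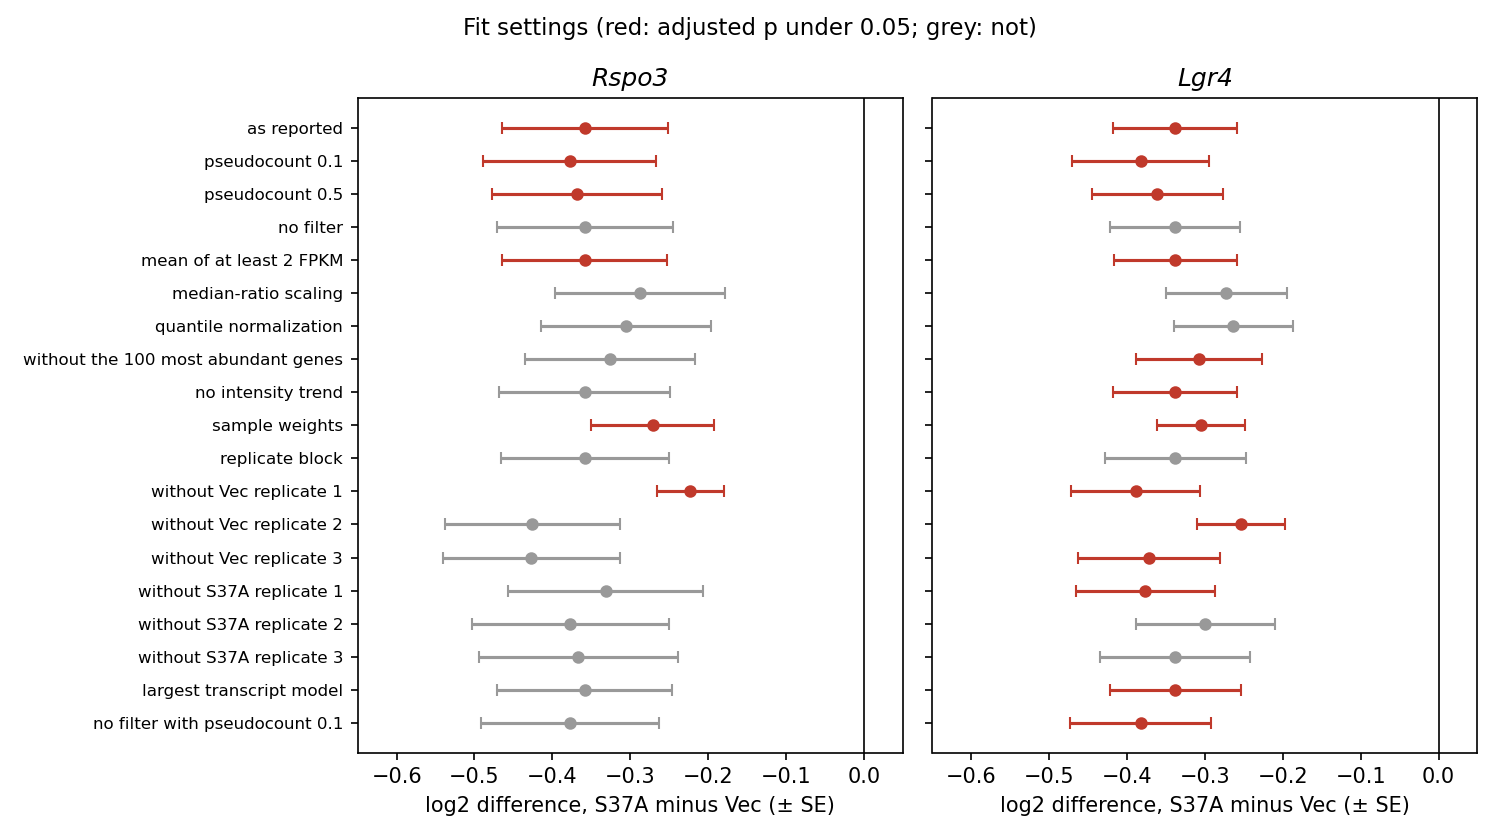
Log2 difference of Rspo3 and Lgr4, S37A minus Vec, with its standard error, under the fit as reported (top) and 18 other settings; red points have an adjusted p under 0.05 and grey points do not. Every point lies below 0, from -0.43 to -0.22 for Rspo3 and from -0.39 to -0.25 for Lgr4, and 5 and 12 of the 18 other settings kept the call.

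Lgr5, a Wnt-induced receptor that marks stem cells of the intestine and hair follicle, was very low but higher in S37A. It lies on chromosome 10 from 115450311 to 115587780 (minus strand of mm10) and codes for protein. It had 0.0676, 0.0884 and 0.0722 FPKM in S37A, against 0.0174, 0.0290 and 0.0320 FPKM in Vec. Every S37A value was above every Vec value. These levels stand for 14.7, 17.0 and 14.7 fragments in S37A and 4.0, 7.0 and 7.0 fragments in Vec, as inferred from the interval widths. The ratio of means was 2.91. The deposited intervals reached down to 0.0324 FPKM in S37A and up to 0.0562 FPKM in Vec. They overlapped for every pair of an S37A and a Vec library except S37A replicate 2 (lower bound 0.0455) with Vec replicate 1 (upper bound 0.0348). Of the 7584 genes below the filter, 4.19% had all S37A values above all Vec values. In the fit without a filter, which called 3.07% of 19606 genes higher, the log2 difference of Lgr5 was 0.07 (SE 0.01, limma adjusted p = 0.0281), and with 0.1 FPKM added in place of 1 it was 0.48 (SE 0.10, adjusted p = 0.0267), where 3.24% of genes were called higher. Leaving out any 1 library without a filter ended the call (adjusted p = 0.0525 without Vec replicate 1, 0.0654 without Vec replicate 2, 0.0655 without Vec replicate 3, and, without S37A replicates 1, 2 or 3 in turn, 0.0625, 0.0874 and 0.0934). A930009A15Rik, a gene on the opposite strand within Lgr5, was listed at 0, 0.0295 and 0 FPKM in S37A and at 0.0247, 0 and 0.0259 FPKM in Vec.

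Lgr6, a receptor known from skin stem cells, lies on chromosome 1 from 134983301 to 135105276 (minus strand). It had 1.02, 1.07 and 1.09 FPKM in S37A, against 1.03, 1.09 and 1.25 FPKM in Vec, and the groups overlapped. Its log2 difference was -0.04 (SE 0.06, limma adjusted p = 0.593), with a sign that turned to 0.00047 under quantile normalization. The 3 receptors thus gave a fall for Lgr4, a higher value at trace level for Lgr5 and no call for Lgr6. Their summed level was 7.35, 6.68 and 7.05 FPKM in S37A, against 8.15, 9.90 and 8.59 FPKM in Vec.

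Znrf3, the ligase with the higher level, lies on chromosome 11 from 5276324 to 5444847 (minus strand of mm10) and codes for protein. It is the only one of the 9 genes with more than 1 transcript model in the files. The GENCODE M21 transcripts linked to these models differ in where transcription starts, in the first coding exon and in further coding bases. Whether the deposited models have the same structure was not examined. The transcript of the upstream-start model begins at position 5444847, and its first coding stretch (5444388 to 5444678) holds 291 bases that the other transcript lacks. The transcript of the downstream-start model begins at 5381740. Its own coding sequence before the first shared coding exon (5338638 to 5338763) is the start codon at 5370531 to 5370533. Beyond these stretches, 35 coding bases belong to the upstream-start transcript alone and 11 to the downstream-start transcript alone. Where these bases lie in the coding sequence was not examined. The coding length in GENCODE M21 is 913 codons for the upstream-start transcript and 809 for the downstream-start transcript. Their coding starts are given to show how they join the shared exon, whose first 9 bases are in capitals.
Znrf3 upstream start: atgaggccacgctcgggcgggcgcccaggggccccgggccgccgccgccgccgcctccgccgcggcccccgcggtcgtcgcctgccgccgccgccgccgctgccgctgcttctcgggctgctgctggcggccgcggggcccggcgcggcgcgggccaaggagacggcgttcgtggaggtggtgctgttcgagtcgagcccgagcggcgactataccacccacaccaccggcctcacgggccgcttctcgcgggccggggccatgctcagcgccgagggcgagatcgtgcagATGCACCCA
Znrf3 downstream start: atgATGCACCCA

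At the level of the gene, Znrf3 did not pass the test. It had 1.78, 1.51 and 1.72 FPKM in S37A, against 1.41, 1.67 and 1.50 FPKM in Vec, and the groups overlapped. The means were 1.67 ± 0.140 FPKM in S37A and 1.53 ± 0.129 FPKM in Vec, with a log2 difference of 0.08 (SE 0.06, limma adjusted p = 0.362).

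The models of Znrf3 stood in opposite directions. The downstream-start model had 1.36, 1.05 and 1.30 FPKM in S37A, against 0.732, 0.868 and 0.952 FPKM in Vec, a ratio of means of 1.45. The upstream-start model had 0.425, 0.465 and 0.426 FPKM in S37A, against 0.682, 0.800 and 0.552 FPKM in Vec, a ratio of 0.647. For both models the groups did not overlap, as for 39.4% of the transcript models tested. The downstream-start model made up 76.1%, 69.3% and 75.2% of Znrf3 FPKM in S37A, against 51.8%, 52.0% and 63.3% in Vec, a mean difference of 17.9 percentage points (exact two-sided permutation p = 0.1, the smallest possible). Across 14550 transcript models, of which limma called 7.91%, neither passed: the log2 difference was 0.27 (SE 0.09, adjusted p = 0.115) for the downstream-start model and -0.22 (SE 0.09, adjusted p = 0.169) for the upstream-start model. A test of the ratio between the models, chosen after these values were seen and run over 2706 genes with more than 1 model, did not pass either. With 1 FPKM added to both models, the log2 difference in the ratio was 0.49 (SE 0.15, unadjusted p = 0.0196, limma adjusted p = 0.462, 0.407% of genes called). With 0.1 FPKM added it was 1.01 (SE 0.26, unadjusted p = 0.0108, adjusted p = 0.539, 0.628% of genes called). The split of reads between models that share most of their exons is an estimate made by the authors' software.

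**Figure D3:**
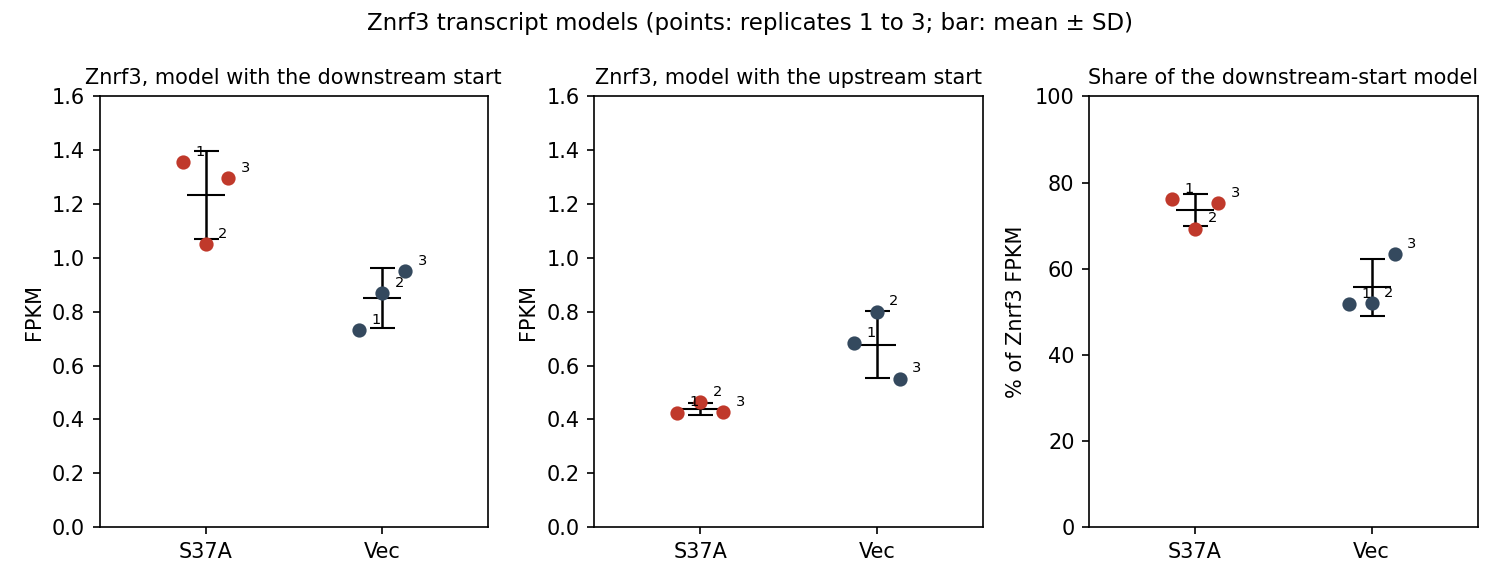
FPKM of the downstream-start and upstream-start models of Znrf3, and the share of Znrf3 FPKM given to the downstream-start model in %, in S37A (red) and Vec (dark blue) libraries; numbered points are replicates and the bar is the mean ± SD of 3 libraries. The share lies between 69.3% and 76.1% in S37A and between 51.8% and 63.3% in Vec.

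Rnf43, the other ligase, lies on chromosome 11 from 87662722 to 87735539 (plus strand). It had 0.0742, 0.137 and 0.169 FPKM in S37A, against 0.181, 0.118 and 0.151 FPKM in Vec. The groups overlapped, and the S37A values spread over a wider range than the Vec values. By the interval widths, the values stand for 14.7, 23.7 and 31.9 fragments in S37A and 37.6, 25.8 and 30.0 in Vec. Whether the wider spread exceeds counting error was not tested. In the fit without a filter Rnf43 did not pass (limma adjusted p = 0.610). The summed level of both ligases was 1.86, 1.65 and 1.89 FPKM in S37A, against 1.60, 1.79 and 1.65 FPKM in Vec.

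Counts in the lists of pathway genes that follow stand beside 26.0% of all tested genes called, 6.06% higher and 19.9% lower in S37A. The first list holds the receptors that Znrf3 and Rnf43 act on. Of 12 Frizzled and LRP genes, 10 were tested, of which 1 rose and 9 did not pass, and their median log2 difference was 0.00067. The gene that rose was Fzd1, with 16.8 ± 0.970 FPKM in S37A and 8.76 ± 0.757 FPKM in Vec (limma adjusted p = 0.00125). Lrp6, the co-receptor that the ligases also remove, had 9.83 ± 0.409 FPKM in S37A and 10.9 ± 0.271 FPKM in Vec and missed the threshold (adjusted p = 0.0546). It was called lower with a 2 FPKM filter (adjusted p = 0.0483) or sample weights (0.0400). With median-ratio scaling (0.319) or quantile normalization (0.298) it was not called. Its relative Lrp5 had 7.12 ± 0.338 FPKM in S37A and 7.87 ± 0.651 FPKM in Vec (adjusted p = 0.170; 0.0405 without Vec replicate 1). Fzd5 had 2.25 ± 0.102 FPKM in S37A and 2.01 ± 0.132 FPKM in Vec (adjusted p = 0.157).

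Genes that link the ligases to their targets, or control LRP removal by another route, moved both ways. Of 9 tested of 12, 2 rose, 2 fell and 5 did not pass, with a median of -0.02. Dvl2, a Dishevelled protein through which the ligases recognise Frizzled, fell to 7.27 ± 0.260 FPKM in S37A, against 8.89 ± 0.396 FPKM in Vec (limma adjusted p = 0.0125). Usp42, a deubiquitinase reported to stabilise both ligases, fell to 3.14 ± 0.228 FPKM in S37A, against 3.73 ± 0.175 FPKM in Vec (adjusted p = 0.0459). That call was lost in 12 of 18 alternatives, including without Vec replicate 2 (0.0970), Vec replicate 3 (0.126), S37A replicate 1 (0.0624), S37A replicate 2 (0.128) or S37A replicate 3 (0.0942). Kremen1, a receptor that removes LRP6 together with Dickkopf proteins, rose to 20.3 ± 0.384 FPKM in S37A, against 17.1 ± 0.606 FPKM in Vec (adjusted p = 0.0100). The Dickkopf gene Dkk2 rose to 10.5 ± 1.27 FPKM in S37A, against 5.89 ± 0.829 FPKM in Vec (adjusted p = 0.00744).

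R-spondins can also bind heparan sulfate proteoglycans, and in frog embryos and human cells Rspo2 can bring the BMP receptor Bmpr1a to Znrf3. Of 12 such genes with the Lgr-associated scaffold Iqgap1, 10 were tested, 1 rose, 1 fell and 8 did not pass, with a median of 0.01. Sdc2, a syndecan, rose to 49.2 ± 1.08 FPKM in S37A, against 42.5 ± 0.740 FPKM in Vec (limma adjusted p = 0.00925). Iqgap1 fell to 137 ± 1.88 FPKM in S37A, against 161 ± 5.27 FPKM in Vec (adjusted p = 0.00799). The glypicans Gpc2 and Gpc1 had 2.84 ± 0.0566 and 38.8 ± 0.663 FPKM in S37A, and 3.38 ± 0.381 and 36.8 ± 0.479 FPKM in Vec (adjusted p = 0.0830 and 0.115; Gpc2 0.0233 without Vec replicate 2). Gpc1 passed, higher in S37A, with median-ratio scaling (0.0162), quantile normalization (0.0466) or the 100 most abundant genes removed (0.0375).

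Of 17 targets of β-catenin other than the axis genes, most of them feedback genes, 12 were tested, of which 4 rose, 1 fell and 7 did not pass, with a median of 0.18. Those that rose were Axin2, Nkd1, Nkd2 and Tcf7. The gene that fell was Myc, a growth regulator named after its value was seen, with 41.1 ± 0.358 FPKM in S37A and 51.1 ± 3.37 FPKM in Vec (limma adjusted p = 0.00961). Nkd2, an inhibitor of Dishevelled, had 3.43 ± 0.159 FPKM in S37A and 2.55 ± 0.0227 FPKM in Vec (limma adjusted p = 0.00767). Its relative Nkd1 had 2.27 ± 0.309 FPKM in S37A and 0.946 ± 0.0443 FPKM in Vec (adjusted p = 0.00291), and Tcf7, a transcription factor of the Tcf/Lef family, 2.01 ± 0.278 FPKM in S37A and 0.728 ± 0.129 FPKM in Vec (adjusted p = 0.00353). With Axin2 at a ratio of means of 22.5, the known targets within the axis gave ratios of 2.91 for Lgr5, 1.09 for Znrf3 and 0.845 for Rnf43. Lgr5 and Rnf43 lay below the filter and rest on few fragments, and the groups overlapped for Znrf3 and Rnf43. Of 19 Wnt ligands, 5 were tested, 2 rose and 3 did not pass, with a median of 0.29. Wnt2 rose to 4.87 ± 0.451 FPKM in S37A, against 2.60 ± 0.396 FPKM in Vec, and Wnt11 to 2.28 ± 0.218 FPKM in S37A, against 1.14 ± 0.112 FPKM in Vec (adjusted p = 0.00567 and 0.00369). Wnt9a and Wnt5a, which also signals without β-catenin, had 38.8 ± 2.21 and 21.7 ± 0.405 FPKM in S37A, and 31.9 ± 5.30 and 20.4 ± 0.643 FPKM in Vec (adjusted p = 0.0891 and 0.123; Wnt9a 0.0221 without Vec replicate 1). The lists of pathway genes share their libraries with the axis genes, and nothing particular to a list follows from its count.

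**Figure D4:**
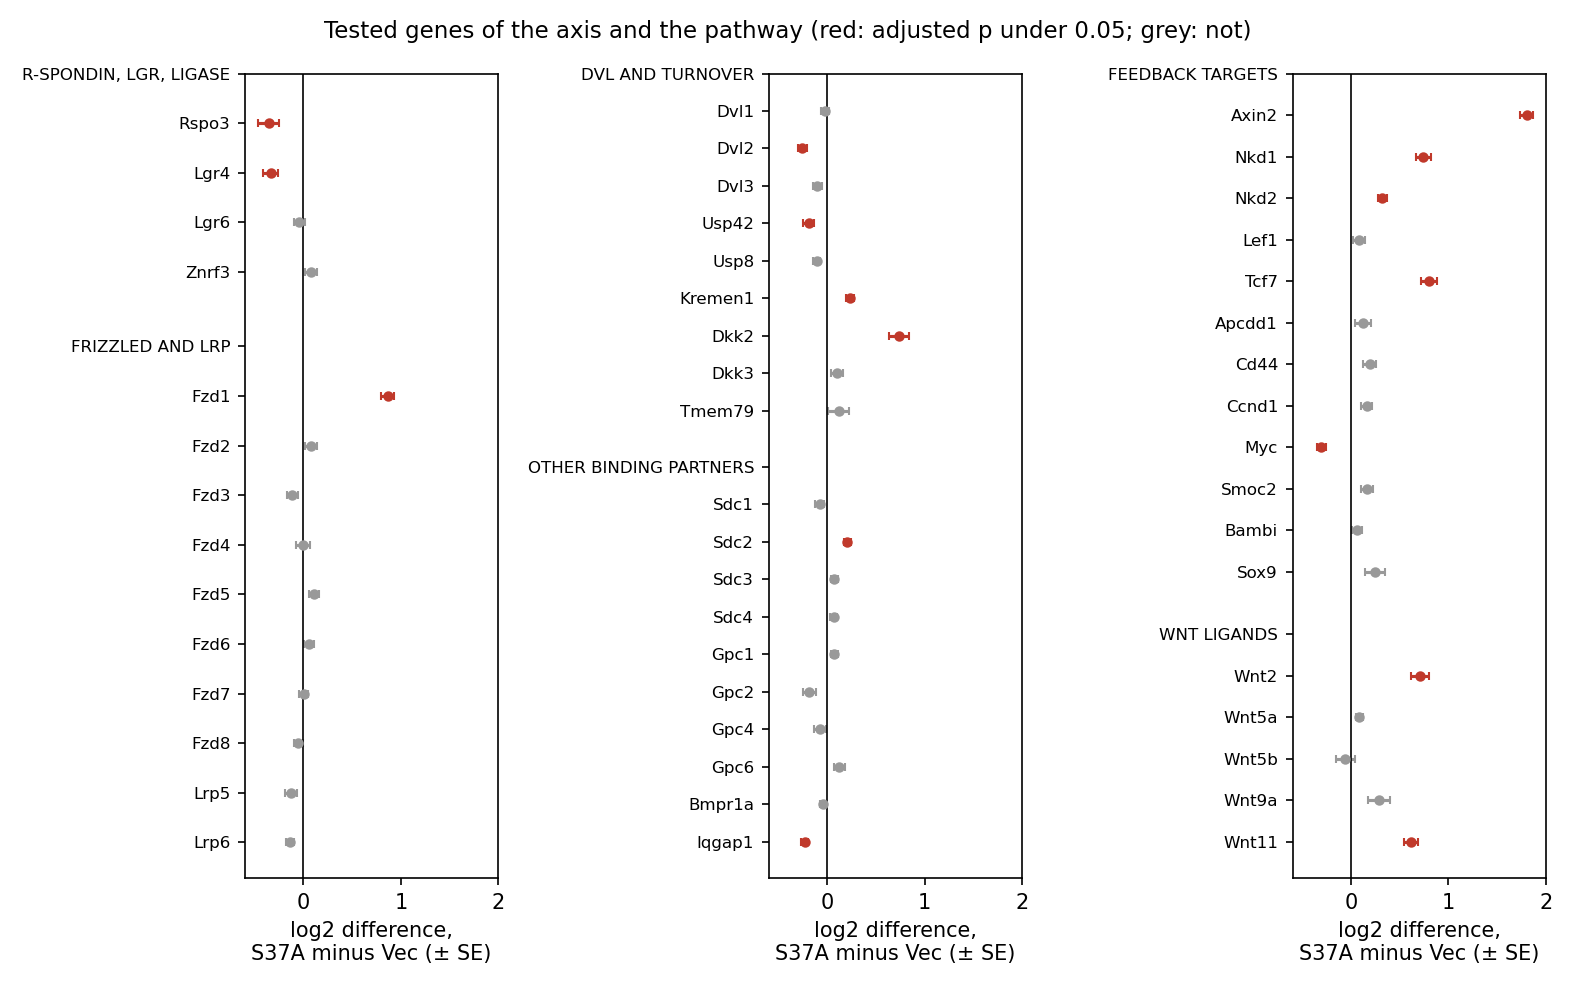
Log2 difference, S37A minus Vec, with its standard error for the 4 tested axis genes and the tested members of 5 lists of pathway genes; red points have an adjusted p under 0.05 and grey points do not. Rspo3 and Lgr4 lie at -0.36 and -0.34 and Fzd1 at 0.87.

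The tested genes with patterns most like those of the axis genes were sought among 9912 genes averaging 2 FPKM or more, by Pearson's r of log2(FPKM + 1) over the 6 libraries. These r are descriptions, since the 6 points share libraries and fall into 2 groups. Lgr4 was matched by Mtrr (r = 0.999), which encodes methionine synthase reductase, and Cenpn (r = 0.999), which encodes a centromere protein. Mtrr had 5.34 ± 0.294 FPKM in S37A and 7.06 ± 0.884 FPKM in Vec, close to the values of Lgr4. Rspo3 was matched by F11r (r = 0.988), which encodes a junctional adhesion molecule, and the transcription factor gene Nfe2l1 (r = 0.987). F11r had 16.8 ± 0.445 FPKM in S37A and 18.8 ± 1.57 FPKM in Vec. Lgr6 was matched by Ccar2 (r = 0.986) and Cdk2ap1 (r = 0.974). Znrf3 was matched by Gyk (r = 0.970), a glycerol kinase gene, and Uhrf1bp1l (r = 0.969).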

How the data were processed

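Per the labels' protocols, cDNA came from total RNA by the SMART-Seq v4 kit, which keeps no strand information, and was sequenced on an Illumina instrument. The submitters' processing notes name TopHat, Cufflinks, bcl2fastq 1.8.3 and the build mm10; their roles, the versions of TopHat and Cufflinks and the annotation are not given in the sources used here. Each of the 6 tables deposited by the authors holds FPKM of 34535 transcript models with the bounds of a confidence interval, per the file headers. Read counts are not in these tables. Fragment numbers were inferred as the square of 2 times FPKM over the interval's half-width, and cover counting error only.

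FPKM were summed by symbol, and 5 genes with a status other than OK in a library were left out. A mean of 0.5 FPKM or more was required, which 12022 genes met, and limma 3.58.1 (R 4.3.3) was run on log2(FPKM + 1) (intensity trend, no block, Benjamini-Hochberg threshold 0.05), all 6 libraries in a single fit. The script was tested on simulated data. The same fit was run on transcript models. Alternatives changed the pseudocount, filter, scaling, trend, weights, block, the libraries used and the sum over models. Positions are from GENCODE M21 (mm10, 1-based) and promoters from RefSeq (GRCm38.p6). Genes named are the 9 axis genes, Ctnnb1, Axin2, up to 4 genes with the smallest p of each pathway list, and the 2 genes most like each tested axis gene; A930009A15Rik, Gm48159 and Gm20276 were named for their position, Myc after its value was seen, and marker genes as checks. The members and lists were chosen with earlier results of these data known.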

Additional observations from a re-analysis of the deposited data

How the results depend on the processing

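Rspo3 and Lgr4 kept a negative difference in all 18 alternatives, with adjusted p-values of 0.0170 to 0.109 and 0.00635 to 0.0753, and Znrf3 a positive one in all 17 (0.0607 to 0.631). The number of axis genes called lower was 2 as reported, 0 without a filter, with median-ratio scaling, quantile normalization or the replicate block, and 1 without the 100 most abundant genes, without the intensity trend or with the largest transcript model alone. It ran from 0 to 2 with 1 library left out. The number called higher was 0, and 1 without a filter (Lgr5). Lgr6 changed sign under quantile normalization (0.00047), and Wnt5a was called lower with its largest model alone (-0.30, adjusted p = 0.0409) but higher with median-ratio scaling (0.16, 0.0296), quantile normalization (0.14, 0.0479) or sample weights (0.12, 0.0215). Lgr5 without a filter stayed called under each other scaling (0.0191 to 0.0284) but not with the replicate block (0.0804) or without the trend (0.0523).

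Over all genes, 729 were higher and 2393 lower. Median-ratio scaling gave 1265 and 945, quantile normalization 1094 and 957, sample weights 1238 and 3655, and the replicate block 442 and 1193. Fewer were lower without the 100 most abundant genes (1503) or with the largest model (1491). With 1 library left out, 298 to 747 were higher and 606 to 2401 lower; the lowest counts were without S37A replicate 3. The split between higher and lower thus moved with scaling.

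Among the lists, β-catenin targets outside the axis that rose numbered 1 with a 2 FPKM filter, 7 with median-ratio scaling and 9 with sample weights. With 1 library left out they numbered 4 to 5. Wnt ligands that rose numbered 1 with the 2 FPKM filter and 4 with sample weights, and 2 to 3 with 1 library left out; 1 fell with the largest model. Binding partners that rose numbered 4 with median-ratio scaling, 3 with quantile normalization and 2 without the 100 most abundant genes or with sample weights, and 2 fell with sample weights; 1 to 2 fell with 1 library left out, with 2 without Vec replicate 2. Frizzled and LRP genes that fell numbered 1 with the 2 FPKM filter and 2 with sample weights, and 0 to 1 with 1 library left out, with 1 without Vec replicate 1. Of the turnover genes, 1 fell without a filter, with median-ratio scaling, quantile normalization, removal of the 100 most abundant genes, the replicate block or the largest model, and 1 to 3 with 1 library left out. The cause of these changes was not tested.

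The replicate numbers shared by the groups did not pair the libraries: the correlation of deviations from the group means was -0.12, 0.02 and 0.10 for the same-numbered pairs. With the number as a replicate block, Rspo3 (adjusted p = 0.0785), Lgr4 (0.0634) and Usp42 (0.0847) were not called. Depth limits the statements on Rspo1, Rspo2, Rspo4, Lgr5 and Rnf43, which rest on few fragments. The alternatives without a filter for Lgr5 and the ratio of Znrf3 models were chosen after seeing the data.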
